A study of Mus musculus with 6 samples.

Results

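The Cyp4a genes encode cytochrome P450 enzymes that hydroxylate fatty acids at the terminal, or omega, carbon. The 6 mouse genes Cyp4a10, Cyp4a14, Cyp4a12a, Cyp4a12b, Cyp4a31 and Cyp4a32 of this family were taken by gene symbol from a liver RNA-seq table, where they are 6 of 24411 rows. The tested livers were Sox9 cKO, with the genotype Alb-Cre+/+;Sox9 flox/flox (3 libraries), and the controls were labelled WT (3 libraries). In the Sox9 cKO the Cre recombinase is driven by the albumin promoter, which is active in hepatocytes and in the cells that form bile ducts, and it removes the transcription factor Sox9 from liver epithelial cells. The series names C57BL/6J, floxed and Alb-Cre mice as its animals, and the controls are described no further than WT. Ages and sexes are not in the labels, nor is it stated that each library came from a separate animal, so p-values measure the spread between these 6 libraries, which may be in part technical.

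Omega hydroxylation is a side route of fatty acid breakdown. The hydroxylated acid is oxidised to a dicarboxylic acid, which peroxisomes shorten, and the same chemistry turns arachidonic acid into 20-HETE, a vasoactive eicosanoid. The members differ in what regulates them. Cyp4a10 and Cyp4a14 are textbook targets of PPARA, the nuclear receptor that senses fatty acids and fibrate drugs. Cyp4a12a and Cyp4a12b are male-predominant in mouse liver and depend on androgen and on the pulsed growth hormone pattern of males, read out through STAT5B, and Cyp4a12a is the main mouse enzyme that makes 20-HETE. Cyp4a31 and Cyp4a32 are close copies of Cyp4a10.

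All 6 genes lie in 1 cluster on chromosome 4 (GRCm38, which is mm10, in the GENCODE M21 annotation) that spans 322.6 kb. In order along the chromosome they are Cyp4a12a (chr4:115299046-115332815, + strand), Cyp4a12b (chr4:115411624-115439034, +), Cyp4a14 (chr4:115486200-115496142, -), Cyp4a10 (chr4:115518264-115533649, +), Cyp4a31 (chr4:115563649-115579015, +) and Cyp4a32 (chr4:115600969-115621602, +). Cyp4a14 is the only one of the 6 on the minus strand. A stretch of 75 bases, the length of 1 sequencing read, was picked from the coding part of exon 4 to tell all 6 members apart. Among ungapped coding stretches within 1 exon, its 2 closest members differ most, so other reads can separate the members less. The stretch stands for a favourable read, not a typical one. This stretch is given below for each member from the GENCODE transcripts, read 5′ to 3′ along the transcript. Capitals mark the 28 positions where at least 1 member differs.
Cyp4a10: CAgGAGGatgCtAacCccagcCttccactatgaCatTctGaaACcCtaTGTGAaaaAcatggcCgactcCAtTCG
Cyp4a14: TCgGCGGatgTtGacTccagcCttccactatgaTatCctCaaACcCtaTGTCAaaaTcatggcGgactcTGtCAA
Cyp4a12a: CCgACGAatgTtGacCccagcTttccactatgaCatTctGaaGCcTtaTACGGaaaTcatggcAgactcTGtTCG
Cyp4a12b: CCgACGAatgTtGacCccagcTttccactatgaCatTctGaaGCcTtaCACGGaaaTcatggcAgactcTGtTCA
Cyp4a31: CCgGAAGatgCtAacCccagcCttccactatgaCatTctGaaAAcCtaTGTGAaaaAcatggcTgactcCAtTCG
Cyp4a32: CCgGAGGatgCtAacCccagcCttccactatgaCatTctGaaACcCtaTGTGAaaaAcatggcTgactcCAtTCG
These stretches lie at chr4:115521111-115521185 for Cyp4a10, chr4:115493585-115493659 for Cyp4a14, chr4:115301954-115302028 for Cyp4a12a, chr4:115414513-115414587 for Cyp4a12b, chr4:115566523-115566597 for Cyp4a31 and chr4:115606688-115606762 for Cyp4a32. Cyp4a12a and Cyp4a12b differ at 2 of the 75 bases, and Cyp4a10 and Cyp4a14 at 17. Cyp4a10 differs from Cyp4a32 at 2 bases and from Cyp4a31 at 4.

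The similarity holds along the whole coding sequence. Cyp4a12a and Cyp4a12b were 98.49% identical, with 23 differing bases of 1524 compared. Cyp4a10 was 97.18% identical to Cyp4a32 and 96.59% to Cyp4a31, whereas Cyp4a14 was 75.02% to 75.94% identical to the other 5. RSEM, the program the authors used, divides reads that fit several genes among them by an estimate, so the split between near-identical copies is uncertain. Of the 75-base windows in the transcripts, 100% of those of Cyp4a14 were found in no other gene, against 80.93% for Cyp4a10, 86.08% for Cyp4a31, 69.64% for Cyp4a32, 59.16% for Cyp4a12a and 58.68% for Cyp4a12b. The 2 growth-hormone-driven genes shared 959 windows with each other. Their divided reads are therefore the least certain of the 6, while their sum does not depend on that division. The part of exon 6 that best separates them holds 6 differing bases, in capitals below (chr4:115326674-115326748 for Cyp4a12a and chr4:115432927-115433001 for Cyp4a12b).
Cyp4a12a: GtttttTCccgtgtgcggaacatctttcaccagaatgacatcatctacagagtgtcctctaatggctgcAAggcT
Cyp4a12b: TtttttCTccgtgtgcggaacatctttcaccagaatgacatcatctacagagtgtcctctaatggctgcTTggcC
For Cyp4a10 and its close copies, the stretch picked in the same way lies in exon 1. Capitals mark the 6 positions where they are not all alike (chr4:115518389-115518463, chr4:115563784-115563858 and chr4:115601042-115601116, in the order of the lines).
Cyp4a10: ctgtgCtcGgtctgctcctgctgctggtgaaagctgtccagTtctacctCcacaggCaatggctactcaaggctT
Cyp4a31: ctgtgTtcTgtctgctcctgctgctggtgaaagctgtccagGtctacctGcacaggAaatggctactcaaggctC
Cyp4a32: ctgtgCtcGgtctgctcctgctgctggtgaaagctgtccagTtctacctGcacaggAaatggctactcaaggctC
Here Cyp4a32 differs from Cyp4a10 at 3 bases and from Cyp4a31 at 3.

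**Figure D1:**
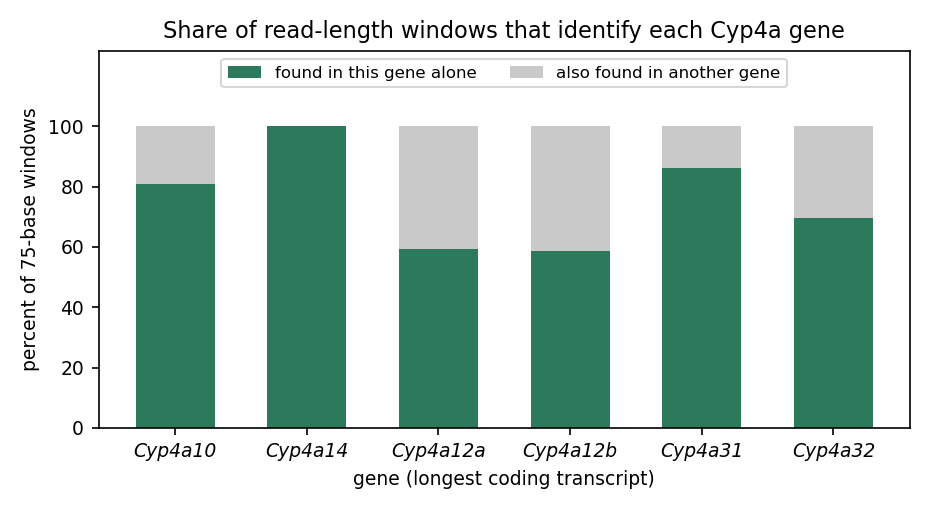
Share of the 75-base windows of each member's longest coding transcript (in percent) that occur in no other gene, and the share also found in another gene. All windows of Cyp4a14 were unique, and the shares of Cyp4a12a and Cyp4a12b that were unique, 59.16% and 58.68%, were the lowest of the 6.

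Levels are deposited TPM, a gene's length-corrected share of all transcripts in a library, and can be compared between genes. Depth cannot be read from TPM and is unknown. Sox9 itself stood at 0.19, 0.40 and 0.68 TPM in Sox9 cKO, against 1.69, 1.43 and 1.43 TPM in the controls, and fell by 1.16 on the log2(TPM + 0.5) scale (SE 0.25, limma adjusted p = 0.0323), a call lost under 10 of its 17 alternatives, among them leaving out any 1 control. The levels were low in both groups. Hepatocyte markers were abundant in every library, with a summed level of 128622 to 137653 TPM in Sox9 cKO and 155743 to 164472 TPM in controls, and 6 of 10 markers of kidney, the other organ rich in Cyp4a, were listed at 0 in all libraries. The libraries did not fall into their groups alone. Xist, the RNA of the inactive X chromosome, was at 0.02 TPM or less in all Sox9 cKO libraries, against 114, 123 and 0.01 TPM in control replicates 1, 2 and 3, and the Y-linked Eif2s3y was at 49.9, 47.6 and 48.1 TPM against 0.07, 0 and 51.6 TPM. Controls 1 and 2 therefore carried the female marker pattern, and control 3 the male pattern of all 3 Sox9 cKO libraries. Results for the members are given with all 6 libraries and against control 3 alone. Since that leaves 1 control, a test against it assumes that this library varies like the others.

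Cyp4a12a was near 0 in the controls and abundant in Sox9 cKO livers. It had 87.9, 209.7 and 241 TPM in the Sox9 cKO libraries, against 0.38, 0.12 and 0.06 TPM in the controls. Every Sox9 cKO library was far above every control, and the lowest of them was 231 times the highest control. The means were 179.7 ± 81.1 TPM in Sox9 cKO and 0.187 ± 0.170 TPM in controls (SD, n = 3 each). On log2(TPM + 0.5), Sox9 cKO minus control, the fold change was 7.94 (SE 0.37, 95% interval 7.07 to 8.80, limma adjusted p = 0.000284), the sixth largest increase among 12539 tested genes.

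Cyp4a12b, its neighbour and near copy, followed the same pattern at a lower level. It had 33.5, 90.7 and 62.8 TPM in the Sox9 cKO libraries, against 0, 0.06 and 0.06 TPM in the controls. The groups were again far apart, and the fitted log2 fold change came to 6.75 (SE 0.33, 95% interval 5.99 to 7.51, limma adjusted p = 0.000284). The Cyp4a12a level was 2.31 to 3.84 times that of Cyp4a12b within the Sox9 cKO libraries, a ratio that rests on how reads were divided between the copies. Their summed level, which does not, was 121, 300.4 and 304 TPM in Sox9 cKO and 0.38, 0.18 and 0.12 TPM in controls.

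The absence of both Cyp4a12 transcripts was not limited to the controls with Xist. Control 3, without Xist and with Eif2s3y, had the lowest summed level of the 6 libraries, 0.12 TPM. Against control 3 alone, Cyp4a12a was higher by 8.20 and Cyp4a12b by 6.70 on the log2 scale (limma adjusted p = 0.0117 and 0.0212). Both genes were past the threshold of an adjusted p of 0.05 in each of 18 alternative analyses, with log2 fold changes of 7.13 to 9.33 for Cyp4a12a and 5.82 to 8.72 for Cyp4a12b. An exact two-sided permutation test gave p = 0.1 for each, the smallest that 3 against 3 libraries allow.

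**Figure D2:**
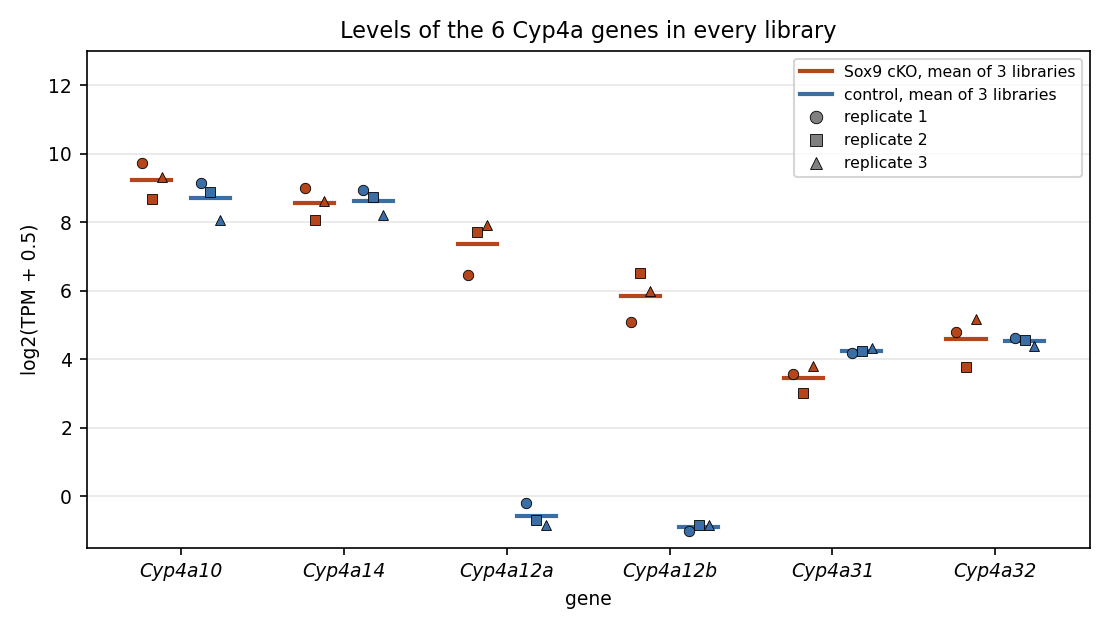
Levels of the 6 Cyp4a members in each library on a log scale, Sox9 cKO left and control right for each gene. Cyp4a12a and Cyp4a12b were at least 33.5 TPM in every Sox9 cKO library and at most 0.38 TPM in every control, while the groups of Cyp4a10, Cyp4a14 and Cyp4a32 overlapped.

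The PPARA-driven members were not called in either direction. Cyp4a10 had 839, 409 and 636 TPM in the Sox9 cKO libraries, against 567, 469.9 and 268 TPM in the controls. The groups overlapped, with Sox9 cKO replicate 2 below controls 1 and 2. Its log2 fold change of 0.54 did not pass the test (SE 0.34, 95% interval -0.24 to 1.32, limma adjusted p = 0.316; exact permutation p = 0.4). Cyp4a10 was the most abundant member on average in both groups, at 628 ± 215 TPM in Sox9 cKO and 435 ± 153 TPM in controls (SD, n = 3 each).

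Cyp4a14 had 509, 265 and 394 TPM in the Sox9 cKO libraries, against 486, 428 and 294 TPM in the controls. The lowest and the highest value both came from Sox9 cKO. Fitted over all libraries, the log2 fold change was -0.07 (SE 0.27, 95% interval -0.70 to 0.56, limma adjusted p = 0.889; exact permutation p = 0.8), and its sign depended on the analysis. As folds, the intervals ran from 0.846 to 2.49 for Cyp4a10 and from 0.615 to 1.48 for Cyp4a14. No call could be made within them with 3 libraries a group. Against control 3 alone, the lowest control for both genes, the log2 differences were 1.17 for Cyp4a10 and 0.35 for Cyp4a14.

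Although neither gene passed the test, the ratio between them did not overlap between groups. The Cyp4a10 level was 1.65, 1.54 and 1.61 times that of Cyp4a14 in the Sox9 cKO libraries, against 1.16, 1.10 and 0.909 times in the controls. This ratio was singled out after the values were seen and was not tested. It does not depend on the TPM scaling of a library, and Cyp4a14 shares no window with other genes, while Cyp4a10 shared 302 windows with Cyp4a32 and 185 with Cyp4a31.

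The close copies of Cyp4a10 were expressed far below it. Cyp4a31 had 11.4, 7.57 and 13.5 TPM in the Sox9 cKO libraries, against 17.8, 18.5 and 19.6 TPM in the controls. All 3 Sox9 cKO libraries were below all controls, and the Sox9 cKO mean was 58.1% of the control mean. With a log2 fold change of -0.79 (SE 0.21, 95% interval -1.27 to -0.31) and an unadjusted p of 0.00525, its limma adjusted p of 0.0522 missed the threshold. Without Sox9 cKO replicate 3 it passed (-0.96, limma adjusted p = 0.0339), and after median centring it did not (-0.52, 0.154). Against control 3 alone its log2 difference was -0.86. Separation in this direction was common, since 33.7% of tested genes had all Sox9 cKO libraries below all controls.

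Cyp4a32 had 27.2, 13.2 and 35.9 TPM in the Sox9 cKO libraries, against 24.0, 23.2 and 20.3 TPM in the controls. The Sox9 cKO values lay on both sides of the controls, with a larger spread (SD 11.4 TPM in Sox9 cKO and 1.91 TPM in controls). Its log2 fold change was 0.06 (SE 0.32, 95% interval -0.69 to 0.81, limma adjusted p = 0.915; exact permutation p = 0.9). Against control 3 alone the difference was 0.20. In liver as a bulk tissue, fewer expressing cells and less RNA per cell cannot be told apart for any of these genes.

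Over the family, 2 of 6 members were called higher and 0 lower by limma, where 1 was lower at an unadjusted p under 0.05. Among all tested genes, 0.821% were called higher and 8.76% lower, so the background ran in the opposite direction. Tested genes had a median log2 fold change of -0.24, and 103 were called higher and 1099 lower. At an unadjusted p under 0.05, 3416 of the 12539 tested genes were lower. All 3 Sox9 cKO libraries were above all controls in 3.79% of tested genes. The Cyp4a12 genes thus stood with the few that rose, and the other 4 members were not called.

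**Figure D3:**
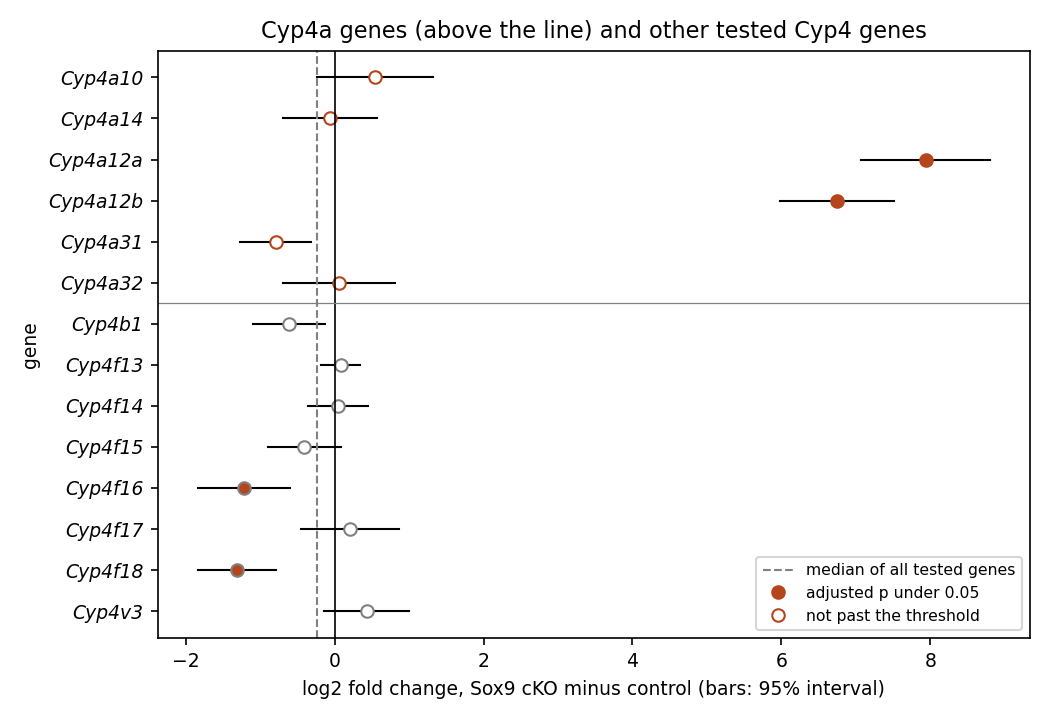
Log2 fold changes, Sox9 cKO minus control on log2(TPM + 0.5), with 95% intervals from limma for the 6 members and the other tested Cyp4 genes. Points filled red passed an adjusted p of 0.05. Cyp4a12a and Cyp4a12b stood at 7.94 and 6.75, and every other Cyp4 gene shown was at 0.54 or lower.

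The order of the family differed between the groups. In Sox9 cKO livers the mean levels ran from Cyp4a10 through Cyp4a14, Cyp4a12a, Cyp4a12b and Cyp4a32 to Cyp4a31. Each gene exceeded the next in 3 of 3 libraries, yet the ranges of neighbours overlapped except between Cyp4a14 and Cyp4a12a. In controls the order was Cyp4a10, Cyp4a14, Cyp4a32, Cyp4a31, Cyp4a12a and Cyp4a12b. Cyp4a10 and Cyp4a14 overlapped there, both were far above Cyp4a32, Cyp4a32 was above Cyp4a31 without overlap, and the Cyp4a12 genes came last and overlapped each other.

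Set against each other within a library, the PPARA-driven pair exceeded the growth-hormone-driven pair everywhere, but by very different amounts. The log2 ratio of summed TPM, Cyp4a10 and Cyp4a14 over Cyp4a12a and Cyp4a12b with 0.5 added to each sum, was 3.47, 1.16 and 1.76 in the Sox9 cKO libraries, against 10.2, 10.4 and 9.83 in the controls. The groups were far apart, with a mean of 2.13 ± 1.2 in Sox9 cKO and 10.1 ± 0.281 in controls (SD, n = 3 each). The same pair over Cyp4a31 and Cyp4a32 gave 5.11, 4.99 and 4.37 in Sox9 cKO and 4.64, 4.41 and 3.80 in controls, which overlapped. These ratios are descriptions and carry no test.

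The share of the family's TPM that came from the Cyp4a12 genes was 8.05%, 30.2% and 22.0% in the Sox9 cKO libraries, against 0.0347%, 0.0192% and 0.0199% in the controls. Sox9 cKO replicate 2 had the largest share and the lowest Cyp4a10 and Cyp4a14 levels of that group. The sum over all 6 members was 1507, 995 and 1383 TPM in Sox9 cKO and 1095, 939 and 602 TPM in controls. Those ranges overlapped, with Sox9 cKO replicate 2 below control 1. As a share of the TPM of 98 Cyp genes, the 6 members made up 4.76%, 4.15% and 4.33% in Sox9 cKO. In controls the share was 3.65%, 3.16% and 2.81%, without overlap. That share includes the Cyp4a12 genes. Summed without them, Cyp4a10 and Cyp4a14 had 1347, 674 and 1030 TPM in Sox9 cKO. In controls that sum was 1053, 897 and 562 TPM, and the groups overlapped.

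**Figure D4:**
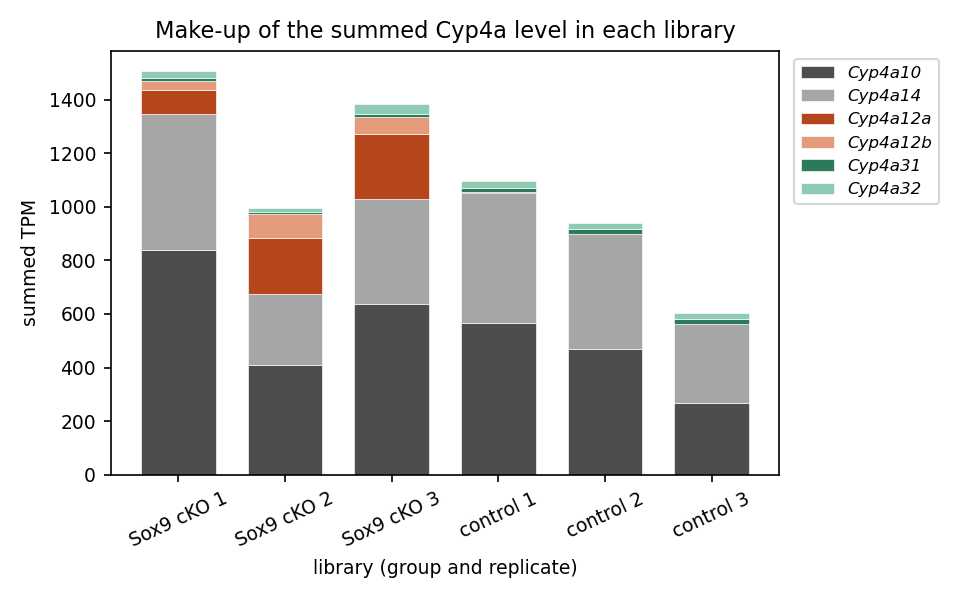
Summed TPM of the 6 members in each library, stacked by member, Sox9 cKO left of control. The Cyp4a12 share was 8.05% to 30.2% in Sox9 cKO and at most 0.0347% in controls.

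Genes around the cluster were not called. Within 250 kb of it, 13 further genes had a row in the table, 7 were tested and 0 were called by limma. The tested genes were Cyp4b1, another P450 gene, and Pdzk1ip1, Tal1, Efcab14, Atpaf1, Mob3c and Mknk1. In 5 of the 7, Cyp4b1, Efcab14, Atpaf1, Mob3c and Mknk1, every Sox9 cKO library was below every control, as in 33.7% of all tested genes. Cyp4a30b, which lies between Cyp4a12b and Cyp4a14, was at most 0.08 TPM in any library.

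Among the other Cyp4 genes, which include leukotriene and long-chain fatty acid hydroxylases of the Cyp4f group, 0 of 8 tested genes were called higher and 2 lower. For all tested genes the shares were 0.821% and 8.76%. Cyp4f16 had 2.61, 4.97 and 2.12 TPM in Sox9 cKO, against 7.58, 7.94 and 7.78 TPM in controls (log2 fold change -1.22, SE 0.27, limma adjusted p = 0.0335). Cyp4f18, which in mice is known from neutrophils and other leukocytes, had 0.08, 0.27 and 0.30 TPM in Sox9 cKO, against 1.3, 1.4 and 1.11 TPM in controls (log2 fold change -1.32, SE 0.23, limma adjusted p = 0.0183). Both were lower in every Sox9 cKO library than in every control, as were 33.7% of all tested genes. Each call was lost after median centring and when any 1 control was left out, and that of Cyp4f16 also without Sox9 cKO replicate 1 or 3. Markers of Kupffer cells and macrophages moved with them: 7 of 10 were called lower, beside 8.76% of all tested genes, and their summed level was 142 to 333 TPM in Sox9 cKO and 471 to 777 TPM in controls. That count was 3 after median centring, 1 with the Xist term and 3, 3 and 5 when control 1, 2 or 3 was left out. Leaving out Sox9 cKO replicate 1, 2 or 3 gave 3, 4 and 10. With the Xist term 49 of all tested genes were called lower. The median log2 fold change of these markers was then -1.17, against -1.60 in the main analysis. Their part in the Cyp4f result was not tested. The other 6 tested genes, Cyp4b1, Cyp4f13, Cyp4f14, Cyp4f15, Cyp4f17 and Cyp4v3, had log2 fold changes of -0.62 to 0.43 and were not called.

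Ppara itself had 55.1, 40.5 and 64.2 TPM in Sox9 cKO, against 69.6, 83.3 and 84.4 TPM in controls. Every Sox9 cKO library was below every control, with a log2 fold change of -0.59 (SE 0.18, limma adjusted p = 0.0825). It passed without Sox9 cKO replicate 3 (-0.73, limma adjusted p = 0.0485) and with array weights (-0.53, 0.0257). In the other 16 of 18 alternatives it was not called. Over all 18 its log2 fold change ran from -0.73 to -0.31. Its dimer partner Rxra, at 112, 98.0 and 141 TPM in Sox9 cKO and 129, 138 and 128 TPM in controls, and its coactivator Ppargc1a, at 5.11, 2.47 and 1.69 TPM in Sox9 cKO and 5.06, 5.20 and 10.9 TPM in controls, overlapped between groups. Of 12 tested genes for PPARA and its partners, 0 were called by limma and 2 were lower at an unadjusted p under 0.05. Among all 12539 tested genes, 3416 were lower at that unadjusted p. With array weights 2 of the 12 were called lower, and without Sox9 cKO replicate 1 or replicate 3 it was 1. Among all tested genes 2312 were called lower with array weights.

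Of 48 tested targets of PPARA outside the Cyp4a family, 0 were called higher and 5 lower, beside 0.821% higher and 8.76% lower among all tested genes. They had a median log2 fold change of -0.04 against -0.24 for all tested genes. That median was 0.24 after median centring, 0.02 after rescaling, 0.04 after quantile normalization and 0.11 with the Xist term. The 5 called genes were the acyl-CoA thioesterases Acot3 (-4.10, limma adjusted p = 0.0134), Acot4 (-1.59, 0.00615) and Acot2 (-1.16, 0.0219), the peroxisomal transporter Abcd2 (-2.44, 0.0117) and Pdk4, a kinase that restrains pyruvate oxidation (-1.56, 0.0314). Acot2 was named to complete the count, after its value was seen. Acot3 and Abcd2 are also on the list of female-biased liver genes. Over 18 alternatives the log2 fold change ran from -4.88 to -3.27 for Acot3 and from -2.77 to -1.98 for Abcd2. With a term for Xist above 10 TPM in the fit, 49 of all tested genes were called lower, and 0 of the 48 were called. Without control 1, 2 and 3 in turn, 1, 2 and 3 were, and with array weights 10 were lower and 1 higher.

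Fabp1, the abundant liver carrier of fatty acids, had 18412, 24377 and 17246 TPM in Sox9 cKO, against 11114, 13418 and 8541 TPM in controls (log2 fold change 0.87, limma adjusted p = 0.0724). Its groups did not overlap, as in 5 of the 48 targets in this direction and 11 in the other, beside 3.79% and 33.7% of all tested genes. Cpt1a, which admits fatty acids to mitochondria, had 124, 90.3 and 152 TPM in Sox9 cKO, against 175, 180.0 and 188 TPM in controls (log2 fold change -0.60, limma adjusted p = 0.0827). The peroxisomal oxidation enzyme Ehhadh, the pantetheinase Vnn1, the thioesterase Acot1, Angptl4 and the hormone Fgf21 overlapped between groups and were not called.

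On the growth hormone side, the receptor Ghr had 327, 260.1 and 361 TPM in Sox9 cKO, against 299.8, 298 and 284 TPM in controls, and was not called (limma adjusted p = 0.717). Stat5b, which carries the pulsed signal of males to the nucleus, had 16.2, 11.4 and 14.6 TPM in Sox9 cKO, against 25.3, 23.4 and 20.8 TPM in controls, and fell by 0.71 (SE 0.16, limma adjusted p = 0.0370). Cux2, a repressor of male-biased genes that female mouse liver expresses, had 0.08, 0.04 and 0.32 TPM in Sox9 cKO, against 15.9, 6.10 and 12.7 TPM in controls. It fell by 4.15 (SE 0.35, limma adjusted p = 0.0025), and control 3 lay within the range of the other controls. The list of growth hormone signalling held 15 tested genes, with a median of -0.55. Of these 0 were called higher and 4 lower, beside 0.821% and 8.76% of all tested genes. The remaining calls were the prolactin receptor Prlr (-1.43, limma adjusted p = 0.0379) and the estrogen receptor Esr1 (-1.26, 0.0138). After median centring or quantile normalization 1 was left, Cux2, and 1 or 2 were left without any 1 control. Cux2 is also on the list of female-biased liver genes.

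The repressor Bcl6, the feedback genes Socs2 and Cish, the growth factor Igf1 and the liver regulator Hnf4a overlapped between groups. Socs2 had 25.4, 1.48 and 58.6 TPM in Sox9 cKO, against 44.2, 19.99 and 21.2 TPM in controls. Cish had 38.96, 1.15 and 15.2 TPM in Sox9 cKO, against 11.1, 15.7 and 5.59 TPM in controls. Bcl6 had 9.03, 30.5 and 5.61 TPM in Sox9 cKO, against 7.83, 3.81 and 18.1 TPM in controls. Sox9 cKO replicate 2 thus had the lowest Socs2 and Cish and the highest Bcl6 of all libraries, while its Cyp4a12 levels were within or above those of the other 2 Sox9 cKO libraries.

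Many other male-biased liver genes were higher too. Of 20 tested outside the Cyp4a family, 14 were called higher and 0 lower, beside 0.821% and 8.76% of all tested genes. Their median log2 fold change was 1.98. The largest were the major urinary protein genes Mup7 (9.65, limma adjusted p = 0.00668) and Mup1 (7.92, 0.00668), the steroid enzyme Hsd3b5 (7.09, 0.00258) and the organic anion transporter Slco1a1 (6.49, 0.000335). Hsd3b5 had 47.9, 118 and 300.1 TPM in Sox9 cKO, against 0.84, 0.37 and 0.09 TPM in controls. Spink1, also on this list, went the other way (-1.61, limma adjusted p = 0.0707). With the Xist term 5 of the 20 were called, and 9 when any 1 control was left out. With array weights 1 of the 20 was called lower, as was 1 without Sox9 cKO replicate 2.

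Of 27 tested female-biased liver genes, 0 were called higher and 16 lower, beside 0.821% and 8.76% of all tested genes. Their median was -3.25. The largest decreases were those of Sult2a1 (-9.21, limma adjusted p = 0.00289), which sulfates bile acids, and of the P450 gene Cyp3a16 (-6.50, 0.0186). Control 3 was as high as the other controls for Sult2a1, but below them for Cyp3a16. With the Xist term 3 of the 27 were called lower, and 6, 7 and 13 without control 1, 2 and 3. With array weights 1 of the 27 was called higher, as was 1 without Sox9 cKO replicate 2. Apart from control 3, genotype and Xist pattern vary together, and their parts in these lists cannot be told apart.

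**Figure D5:**
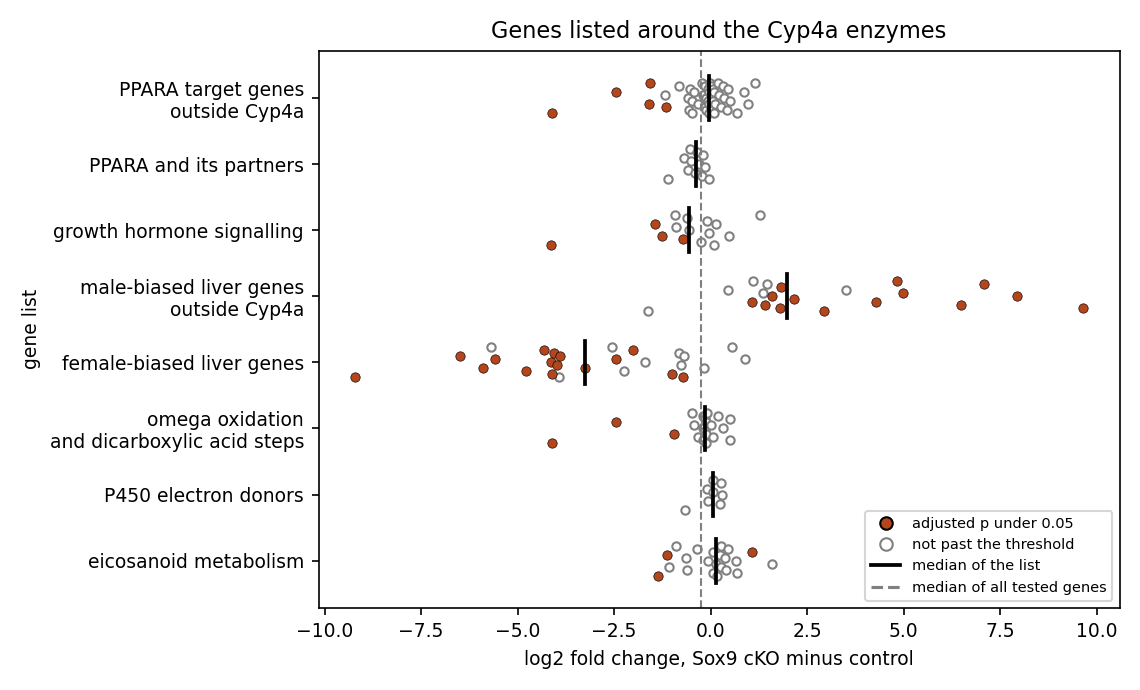
Log2 fold changes, Sox9 cKO minus control on log2(TPM + 0.5), of the tested genes of each list, with calls marked and the list's median. The male-biased genes had a median of 1.98, the female-biased genes -3.25 and the PPARA targets outside Cyp4a -0.04.

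The genes whose levels across the 6 libraries were most like those of Cyp4a12a, by Pearson r on log2(TPM + 0.5), were Slco1a1 (0.995), Mup13 (0.994), Mup5 (0.994), Abcg2 (0.993) and Hsd3b5 (0.992). For Cyp4a12b they were Mup5 (0.998), Mup6 (0.992), Cml5 (0.991), Slco1a1 (0.990) and Serpina1c (0.985). Both groups enter these values, so a gene near 0 in all controls and high in Sox9 cKO scores high whatever its order within a group. For Cyp4a10 they were Pbld2 (0.982), Hnf4aos (0.981), Mme (0.976), Yaf2 (0.971) and Cyp2c50 (0.969). For Cyp4a14 they were Zfhx2 (0.993), Dgkq (0.975), Parp9 (0.975), Ccdc126 (0.974) and Nrep (0.969). The first 5 for Cyp4a10 and the first 5 for Cyp4a14 had no gene in common. All genes of a library share its depth and scaling.

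P450 enzymes draw electrons from Por, the P450 reductase, and from Cyb5a. Por had 253, 159 and 279 TPM in Sox9 cKO, against 288, 320 and 481 TPM in controls (log2 fold change -0.66, limma adjusted p = 0.141). Every Sox9 cKO library was below every control for Por, as in 33.7% of all tested genes. Cyb5a overlapped between groups. Of 8 tested electron donors 0 were called by limma, and 1 was lower at an unadjusted p under 0.05. Among all 12539 tested genes, 3416 were lower at that unadjusted p.

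Downstream, 21 tested genes act in omega oxidation and the handling of dicarboxylic acids. Of these 0 were called higher and 3 lower, Acot3 and Abcd2 as above and the peroxisomal acyltransferase Acnat2 (-0.96, limma adjusted p = 0.0425); 0 were called without control 1, 1 without control 2 and 2 without control 3. Aldh3a2, the dehydrogenase that follows the hydroxylase, had 197, 126 and 190 TPM in Sox9 cKO, against 208, 221 and 156 TPM in controls, and was not called. Of 22 tested genes of eicosanoid metabolism, 1 was called higher and 2 lower, with a median of 0.15. Beside both lists, 0.821% of all tested genes were called higher and 8.76% lower. Cyp2u1, another P450 that hydroxylates arachidonic acid, rose by 1.06 (limma adjusted p = 0.0432), a call lost in 10 of 18 alternatives, among them leaving out any 1 control or Sox9 cKO replicate 2 or 3. Cyp2u1 is also on the list of male-biased liver genes. Alox5ap, the activator of 5-lipoxygenase (-1.36, 0.00571), and Ptgs1, the constitutive cyclooxygenase (-1.14, 0.0124), fell. The Alox5ap call was lost with the Xist term and without both controls that carry Xist, and the Ptgs1 call there and without control 1 or control 2. Ephx2, the soluble epoxide hydrolase, had 545, 407 and 515 TPM in Sox9 cKO, against 382, 380.0 and 349.6 TPM in controls (0.39, limma adjusted p = 0.127). Every Sox9 cKO library was above every control for Ephx2, as in 3.79% of all tested genes.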

How the data were processed

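Stranded TruSeq mRNA libraries were read as single ends of 75 nt, per the labels' protocols. Trim Galore 0.5.0 and cutadapt 1.16 for trimming, STAR 2.6.0a for alignment to mm10 and RSEM 1.3.1 for quantification are named by the submitters. The table the authors deposited holds TPM for 24411 genes in 6 libraries, each scaled to a fixed total, so that a rise of abundant genes lowers all others. Which annotation and strandedness RSEM was given is not stated in the labels. In 27 rows a date stands in place of a symbol. They were tested and are not named.

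The 12539 genes averaging 0.5 TPM or more were fitted as log2(TPM + 0.5) in limma 3.58.1 (R 4.3.3, empirical Bayes with a variance trend) with group as the only term, using both groups of 3 libraries. Tests were two-sided, adjusted by Benjamini-Hochberg over all tested genes, with a threshold of 0.05. On this scale changes of low genes are understated. Coding sequences were aligned with mafft 7.526, and windows of 75 bases were compared in Python 3.11.15 across GENCODE M21 transcripts. A RefSeq promoter table (GRCm38.p6) matched 1 of the 6 members, Cyp4a32.

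The members, the gene lists and the tests were chosen with earlier results of these data known. The genes named are the members, all other tested Cyp4 genes, a set given by name (such as Ppara, Stat5b, Por and Sox9), up to 4 called genes with the largest change in each other list, and the 5 genes most like each of the 4 most abundant members (predicted genes left out). Results of a few of them are left out here. Marker genes of cell types and lobular zones were summed per library. Alternatives were other pseudocounts, filters and scalings, no variance trend, array weights, a replicate block, a term for Xist above 10 TPM, leaving out both controls above it, and leaving out each library.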

Additional observations from a re-analysis of the deposited data

How the results depend on the processing

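Cyp4a12a and Cyp4a12b kept their direction and their call in all 18 alternatives. No member was called lower, except that array weights made the count of members lower in Sox9 cKO 1 (Cyp4a31), and leaving out 1 library gave 0 to 1 (Cyp4a31 without Sox9 cKO replicate 3, -0.96, limma adjusted p = 0.0339). The difference in the log2 ratio between the pairs was -8.01, and -9.22 with a pseudocount of 0.1. Of all tested genes higher in Sox9 cKO there were 252 with array weights, 21 with a term for Xist above 10 TPM and 15 with both controls above it left out, and 41 to 112 with 1 library left out. Of all tested genes lower in Sox9 cKO there were 256 after median centring, 215 after quantile normalization, 2312 with array weights, 49 with the Xist term and 18 with both those controls left out, and 137 to 1062 with 1 library left out, the lowest without control 2. Of the calls, 91.4% were lower in the main analysis, 63.7% after median centring and 64.2% after quantile normalization. No pairing by replicate number was seen, with correlations of same-numbered libraries of -0.0446, 0.00354 and -0.0269, though 3 libraries a group cannot settle this. The replicate block gave 85 genes higher and 563 lower with 2 members higher and 0 lower. Of the other named calls, Cux2 and Slco1a1 kept theirs in all 18 alternatives, while Stat5b and Acnat2 kept theirs in 6, Cyp2u1 and Cyp4f16 in 8, and Prlr and Pdk4 in 9. Where calls were lost, the cause was not tested.

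Signs turned only among genes with no call in any alternative, apart from Eif2s3y, at -0.089 with the Xist term or without both controls. The log2 fold change of Cyp4a14 was 0.21 after median centring, 0.12 with array weights and 0.35 with the Xist term or without both controls, and -0.29 to 0.18 with 1 library left out. After median centring Rxra was 0.088, Cish 0.22, Hnf4a 0.19, Cyb5a 0.21, Aldh3a2 0.074, Ehhadh 0.14 and Angptl4 0.24. With array weights Cish was 0.93, Ehhadh 0.041 and Vnn1 -0.023. With the Xist term or without both controls Bcl6 was -0.61, Cish 0.73, Cyb5a 3.94e-05, Aldh3a2 0.11 and Angptl4 0.024. Cish was 0.021 with a pseudocount of 1 and 0.25 after quantile normalization, where Angptl4 was 0.040, and 0.018 after rescaling. With 1 library left out, Cyp4a32 ran from -0.24 to 0.47, Cyp4f14 from -0.069 to 0.18, Cyp4f17 from -0.045 to 0.53, Ghr from -0.013 to 0.22, Bcl6 from -0.20 to 1.02, Socs2 from -1.92 to 0.53, Cish from -1.04 to 1.25, Hnf4a from -0.44 to 0.14, Aldh3a2 from -0.35 to 0.0061, Vnn1 from -0.32 to 0.51 and Angptl4 from -0.30 to 0.16. With 3 libraries a group and depth unknown, the printed 95% intervals give the precision.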

Other observations

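Hepatocyte position along the lobule was read from 2 marker lists. Of 12 tested pericentral markers, 0 were called higher and 1 lower, the amino acid transporter Slc1a4, and their summed level was 3868 to 9970 TPM in Sox9 cKO and 5833 to 9382 TPM in controls. Of 12 tested periportal markers, 1 was called higher, the P450 gene Cyp2f2, and 2 lower, with 8330 to 10675 TPM in Sox9 cKO and 8347 to 12176 TPM in controls. Beside both lists, 0.821% of all tested genes were called higher and 8.76% lower. Markers of stellate cells and fibroblasts were called lower in 7 of 10, beside 8.76% of all tested genes, with 112 to 207 TPM in Sox9 cKO and 356 to 386 TPM in controls. That count was 4, 2 and 4 without control 1, 2 and 3, 3 after quantile normalization and 0 with the Xist term. With that term 49 of all tested genes were called lower. The median log2 fold change of these markers was then -1.33, against -1.19 in the main analysis. Of 6 tested bile duct markers 2 were called lower, Tspan8 and Sox9. Sox9 is the gene that the genotype removes, so its fall was set by the design. The bile duct markers summed to 45.5 to 66.9 TPM in Sox9 cKO and 67.5 to 117 TPM in controls. When any 1 control was left out, 1 of them was called lower. Without any 1 control 0 periportal markers were called lower, and the Cyp2f2 call was lost without control 2 or 3 and without Sox9 cKO replicate 1 or 2.

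The promoter of Cyp4a32, the only member matched in the promoter table, held neither AGGTCA, the half-site of nuclear receptors that 16.26% of 32851 promoters hold, nor TTCNNNGAA, the STAT5-type motif that 8.298% hold, on either strand of its 300 bases. It also held no direct repeat of that half-site spaced by 1 base (DR1) with up to 2 mismatches, which 3.86% of promoters hold. Nothing follows from this about the factors.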
